A study of Mus musculus with 2 samples.

Results

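Mir744, Mir191, Mir425, Mir652, Mir423, Mir328, Mir361 and Mir186 are 8 mouse miRNA genes of the 2202 counted in this hippocampal small RNA series. They were selected on their measured level, as abundant miRNA genes, and on the kind of gene they are held to sit in, so their levels and their order are given as a description. Small RNA was sequenced from total RNA of layer of hippocampus tissue of B6CASTF1/J mice, which are hybrids with a C57BL/6J and a CAST/EiJ parent. All animals were male and 14 days old, and there was no treatment, no mutant and no second condition. The series held 1 group with 2 libraries, labelled biological replicates 1 and 2. Each label names 3 males by different numbers, without saying how their tissue was pooled. The donor identifier is the same in both. Technical and biological spread between the libraries cannot be told apart here. Levels are counts per 1000000 counts on the strand of all miRNA genes (CPM). Each gene stands for a hairpin, and its 5p and 3p arms were not counted apart.

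A miRNA is cut from a hairpin in a longer primary transcript by Drosha in the nucleus and Dicer in the cytoplasm, and the arm that is loaded into an Argonaute protein pairs with target mRNAs through its seed, bases 2 to 8. Many miRNA hairpins lie in introns of longer genes and are made from the same transcript as the host, while others have start sites of their own. In brain, miR-328 is known in mouse as a regulator of Bace1, the beta-secretase that cuts the amyloid precursor protein, and human miR-191 and miR-423 are often used as reference miRNAs because they are found in most tissues.

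RefSeq (GRCm38.p6) held sequences for 7 of the 8 genes, all except Mir328, and the hairpin spans of all 7 were those of the annotation. The mature arms are shown because the arms tell which targets a gene can address and whether any other gene could stand in for it. Capitals mark the seed.
miR-744-5p: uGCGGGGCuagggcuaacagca
miR-744-3p: cUGUUGCCacuaaccucaaccu
miR-191-5p: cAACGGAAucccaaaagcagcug
miR-191-3p: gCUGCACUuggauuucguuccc
miR-425-5p: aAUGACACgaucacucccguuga
miR-425-3p: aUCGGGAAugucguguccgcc
miR-652-5p: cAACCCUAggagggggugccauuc
miR-652-3p: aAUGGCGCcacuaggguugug
miR-423-5p: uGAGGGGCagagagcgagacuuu
miR-423-3p: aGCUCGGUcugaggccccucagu
miR-361-5p: uUAUCAGAaucuccagggguac
miR-361-3p: uCCCCCAGgugugauucugauuugu
miR-186-5p: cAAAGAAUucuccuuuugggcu
miR-186-3p: gCCCUAAGgugaauuuuuuggg

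The 14 arms had 14 different seeds, so none of the 7 genes formed a seed family with another. Many miRNA families with several genes were grouped apart from these genes. A high share of seeds found in no other gene thus follows at least in part from the grouping. Of the 14 seeds, 12 (85.7%) belonged to no other gene among the 1738 mature arms of the RefSeq table, against 64.2% of the 710 arms of the detected genes and 68% of the whole table. The other seeds were shared with a single gene each, miR-425-5p with miR-489-3p and miR-423-5p with miR-6921-5p, which are printed for comparison.
miR-489-3p: aAUGACACcacauauauggcagc
miR-6921-5p: uGAGGGGCaugagguaggaagc

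Neither of those genes was detected. Mir489 had 0 counts in both libraries, and Mir6921 had 3 counts in replicate 1 and 1 in replicate 2. Detected here means at least 2 CPM in each library, which 426 genes (19.3%) reached. No stretch of 20 nucleotides of the 7 hairpins occurred, in either orientation, in a miRNA gene elsewhere in the annotation, and none of 18 nucleotides did. The hairpins ranged from 33.8% G and C in Mir186 to 56% in Mir744, with a median of 51.4%, against a median of 52.1% over 362 detected genes with a RefSeq hairpin.

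The annotation (GENCODE M21 on mm10) places 5 of the 8 hairpins in introns of protein-coding genes on the same strand. Mir744 (ENSMUSG00000076460.1, chr11:65734733-65734832, minus strand) lies in intron 3 of 10 of Map2k4, the kinase that activates JNK, 359 bases from the nearest exon of the transcript read. Mir652 (ENSMUSG00000076011.1, chrX:142739000-142739097, plus strand) lies in intron 1 of 6 of Tmem164, which encodes a membrane protein, 12942 bases from an exon of the transcript read. The X chromosome also holds Mir361 (ENSMUSG00000065510.1, chrX:113074824-113074893, minus strand), in intron 9 of 14 of Chm, the Rab escort protein whose loss causes choroideremia in humans. Mir423 (ENSMUSG00000065518.2, chr11:77078064-77078172, minus strand) lies in intron 1 of 6 of Nsrp1, a splicing regulator of nuclear speckles, and 263 bases from the annotated start of that gene. Mir186 (ENSMUSG00000065431.1, chr3:157544279-157544349, plus strand) lies in intron 8 of 9 of Zranb2, a zinc finger protein of the splicing machinery.

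The other 3 hairpins do not sit inside a protein-coding gene on their own strand. Mir191 (ENSMUSG00000105497.1, chr9:108568319-108568392) and Mir425 (ENSMUSG00000065579.1, chr9:108568777-108568861), both on the plus strand and 384 bases apart, overlap the lincRNA gene 4833445I07Rik. Mir425 lies in an exon of its 1 overlapping transcript, and Mir191 in an exon of one transcript and in an intron of another. Dalrd3, the gene usually named as their host, starts 1024 bases after the end of Mir425 in this annotation. Mir328 (ENSMUSG00000070130.1, chr8:105308364-105308460, minus strand) lies opposite Elmo3, an engulfment and cell motility gene on the plus strand. Of its 97 bases, 12 lie opposite an Elmo3 exon and 85 outside its annotated exons. A host on the same strand coding for protein was thus annotated for 5 of 8 genes (62.5%), against 235 of the 426 detected genes (55.2%). The small RNA counts hold no host mRNA, so how broadly the hosts are expressed could not be checked here.

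**Figure D1:**
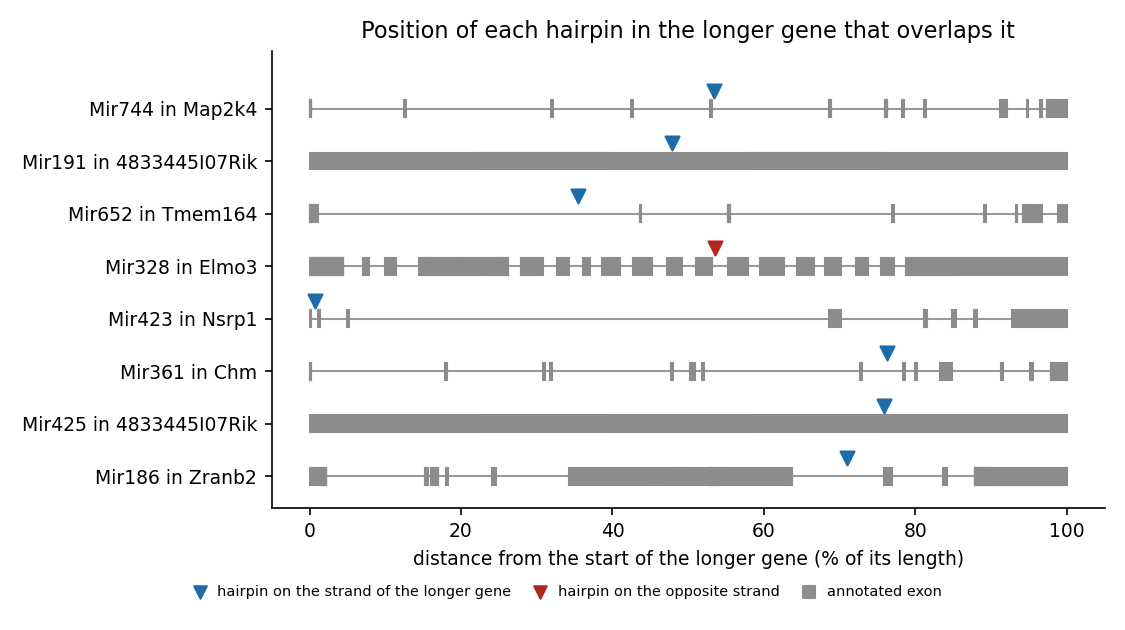
Each row is 1 of the 8 miRNA genes with the longer gene that overlaps it. The horizontal axis is the distance from the start of that gene in percent of its length, grey boxes are exons of any annotated transcript, and triangles mark the hairpin, blue on the strand of the longer gene and red on the opposite strand. Mir423 stands at 0.77% of the length of Nsrp1, and the Mir328 triangle is the red one.

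The 8 genes spanned a 112-fold range of mean level. Of the 8, 7 were at 1000 CPM or more, as were 111 of the 426 detected genes, and Mir186 was not. Their median was 4269 CPM, against 88.3 CPM over all detected genes, a difference that follows from how they were chosen. Together they held 5.865% of the counts of replicate 1, with a Wilson interval of 5.841 to 5.889 at the 95% level. In replicate 2 they held 4.852%, with an interval of 4.826 to 4.879. Such intervals, here and elsewhere, take in counting error alone, as PCR copies were not told apart from molecules. The mean share was 5.36% ± 0.716 (SD, n = 2).

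Mir744 was the highest. It had 91213 counts (24042 CPM, rank 9 of all genes) in replicate 1 and 31027 counts (12144 CPM, rank 17) in replicate 2. Its mean was 18093 ± 8413 CPM (SD, n = 2), and this spread was 46.5% of the mean. The value of replicate 2 lay inside the range of Mir191 and close to that of Mir652, so Mir744 stood apart from them only in replicate 1.

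Mir191 and Mir652 were next and nearly level with each other. Mir191 had 37298 counts (9831 CPM) in replicate 1 and 32038 counts (12539 CPM) in replicate 2, with a mean of 11185 ± 1915 CPM (SD, n = 2). Mir652 had 38135 counts (10052 CPM) in replicate 1 and 30772 counts (12044 CPM) in replicate 2, with a mean of 11048 ± 1409 CPM (SD, n = 2). Mir652 was the higher of them in replicate 1 and Mir191 in replicate 2, so the libraries give no order for this pair. Mir191 overlaps a lincRNA gene of 1.64 kb and Mir652 a protein-coding gene of 162 kb.

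A middle group held Mir328, Mir423 and Mir361. Mir328 had 20494 counts (5402 CPM) in replicate 1 and 9996 counts (3912 CPM) in replicate 2, a mean of 4657 ± 1053 CPM (SD, n = 2). Mir423 had 19700 counts (5192 CPM) in replicate 1 and 6564 counts (2569 CPM) in replicate 2, a mean of 3881 ± 1855 CPM (SD, n = 2). Mir361 had 9619 counts (2535 CPM) in replicate 1 and 10720 counts (4196 CPM) in replicate 2, a mean of 3366 ± 1174 CPM (SD, n = 2). The ranges of the 3 genes overlapped. Mir328 was above Mir423 in both libraries, whereas Mir423 and Mir361 changed places between them. All 3 lay below Mir652 in both libraries.

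Mir425 and Mir186 were lowest and stood apart from the rest and from each other in both libraries. Mir425 had 5481 counts (1445 CPM) in replicate 1 and 2425 counts (949 CPM) in replicate 2, a mean of 1197 ± 350 CPM (SD, n = 2). Mir186 had 573 counts (151 CPM, rank 188) in replicate 1 and 438 counts (171 CPM, rank 182) in replicate 2. Its mean of 161 ± 14.4 CPM (SD, n = 2) had the smallest relative spread of the 8, 8.95% of the mean. For this gene the word abundant holds against the median detected gene but not against the other 7.

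**Figure D2:**
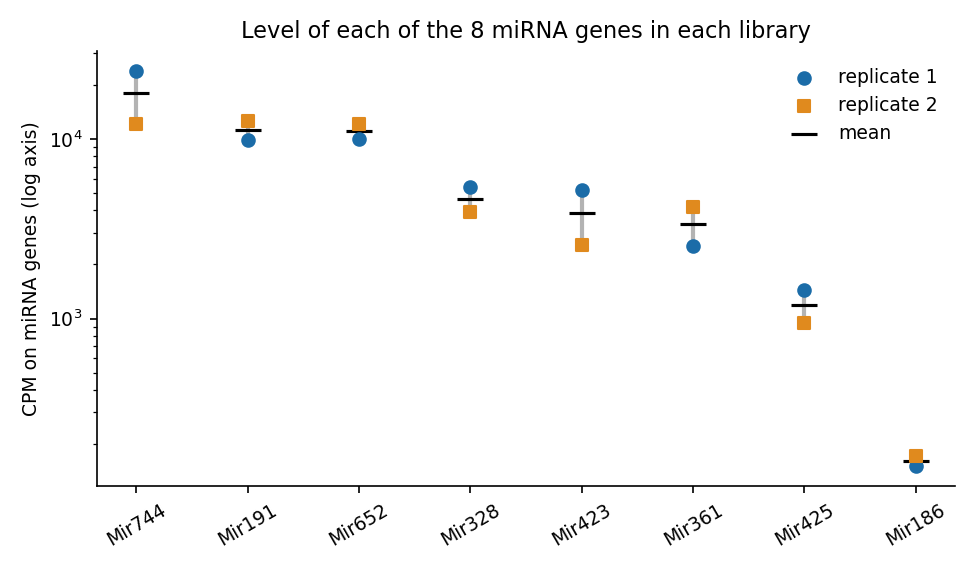
Level of each gene in CPM on a log axis. Circles are replicate 1, squares are replicate 2, horizontal dashes are the mean of the 2 libraries, and grey lines join the libraries. Circles lie above squares for Mir744, Mir328, Mir423 and Mir425, and below them for the other 4 genes.

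The gene outside the group most like each member was found by the Euclidean distance of log2(CPM + 0.5) over the 2 libraries, which measures likeness of level. Mir30c-2 was nearest to Mir186, at a distance of 0.111 log2 units, with 140 and 174 CPM in replicates 1 and 2. Mir323 was nearest to Mir328 (0.138, with 5857 and 3716 CPM), and Mir346 to Mir425 (0.178, with 1613 and 1003 CPM). Mir382 was nearest to Mir652 (0.178, with 11372 and 11987 CPM) and Mir100 to Mir191 (0.193, with 10181 and 14265 CPM). Mir874, a gene listed among those of neural hosts, was nearest to Mir423 (0.205, with 5217 and 2229 CPM). Mir532 at 2386 and 3461 CPM was nearest to Mir361 (0.291). Mir149, in the heparan sulfate proteoglycan gene Gpc1, was the nearest to Mir744, at 0.337 log2 units, with 20240 and 14223 CPM.

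In the order of mean CPM, Mir744 stood below Mir433 at 19842 ± 2013 CPM and above Mir149 at 17231 ± 4255 CPM (SD, n = 2 here and in the next 3 sentences). Mir191 and Mir652 were consecutive, between Mir132 at 11607 ± 8004 CPM and Mir411 at 10914 ± 1889 CPM. Mir328 came between Mir23a at 4750 ± 1843 CPM and Mir130a at 4501 ± 1532 CPM, Mir423 between Mir676 at 3932 ± 267 CPM and Mir874 at 3723 ± 2113 CPM, and Mir361 between Mir221 at 3523 ± 1788 CPM and Mir485 at 3281 ± 542 CPM. Mir425 came between Mir140 at 1227 ± 575 CPM and Mir708 at 1190 ± 397 CPM, and Mir186 between Mir483 at 164 ± 49.1 CPM and Mir1843a at 161 ± 32.2 CPM. None of these neighbours differed from its member by more than their SD. They were picked as the genes adjacent in mean CPM, so this follows from the choice and is no result.

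The 8 genes were set beside 35 other miRNA genes listed as of broadly expressed hosts, such as the Mcm7, Pank and Nfyc genes. They were also set beside 15 listed as of neural hosts, such as Pde2a and R3hdm1. No host was named for some genes of each list, and where the hosts are expressed was not checked here. All 35 and all 15 were detected. The median level was 4269 CPM in the 8 genes, 757 CPM in the 35 and 757 CPM in the 15. The 8 genes held 5.36% ± 0.716 of counts, the 35 held 6.64% ± 0.0781, and the 15 held 10.6% ± 0.18 (SD, n = 2). Mir324 at 9263 ± 367 CPM, Mir342 in the actin regulator Evl at 8017 ± 407 CPM and Mir151 in the focal adhesion kinase gene Ptk2 at 6855 ± 116 CPM led the 35. These 3 genes lay below Mir744, Mir191 and Mir652 in both libraries. Of the 15, Mir139 in Pde2a at 71768 ± 6147 CPM exceeded every one of the 8, followed by Mir149 and by Mir128-1 at 5824 ± 2065 CPM. The 8 were chosen for high levels and the lists were not, so their medians are a description. Reads that mapped to several places are in no gene's count. Both lists hold miRNAs with several gene copies. None of the 7 hairpins with a sequence shared a stretch of 18 nucleotides with a miRNA gene elsewhere. The part of this in the medians, shares and order was not tested.

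Of the 8 genes, Mir191 was the 1 whose count was lost when strand was ignored. Each table gives counts on the strand of the gene, on the opposite strand, and on either strand. A second miRNA gene, Gm24083 (ENSMUSG00000092915.1, chr9:108568295-108568414), is annotated on the minus strand over the whole of Mir191. The hairpin of Mir191 is printed as RNA with its mature arms in capitals. Gm24083 follows as the annotation's transcript letters, with the 74 bases complementary to Mir191 in capitals.
Mir191: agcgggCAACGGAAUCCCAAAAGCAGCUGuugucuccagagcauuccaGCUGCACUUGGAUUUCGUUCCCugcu
Gm24083: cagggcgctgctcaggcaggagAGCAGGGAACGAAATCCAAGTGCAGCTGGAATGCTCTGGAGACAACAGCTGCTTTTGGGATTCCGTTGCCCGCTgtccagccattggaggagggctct

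Mir191 had all of its reads on its own strand, 37298 in replicate 1 and 32038 in replicate 2, and 0 opposite. Gm24083 had 0 counts on its own strand in either library, and its opposite-strand counts were the same 37298 and 32038. In the column that ignored strand both genes were at 0. That column lists 217782 ambiguous reads in replicate 1 and 153023 in replicate 2, and the Mir191 reads equal 17.1% and 20.9% of these numbers. A count of 0 in that column was found for 1 of the 8 genes (12.5%) and 24 of the 426 detected genes (5.63%).

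The other 7 genes overlapped no second miRNA gene and had the same count with and without strand, except for 2 reads at Mir328. Those 2 reads were the only opposite-strand counts of the 8 genes, against 9996 on the strand of Mir328 in replicate 2, a share of 0.02% with an exact 95% upper limit of 0.0722%. They lay on the strand of Elmo3. Replicate 1 had 0 opposite-strand reads at Mir328, which allows a share of up to 0.018% by the same exact interval. An opposite-strand count was found for 1 of the 8 genes and for 27 of the 426 detected genes (6.34%), so its absence was common.

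**Figure D3:**
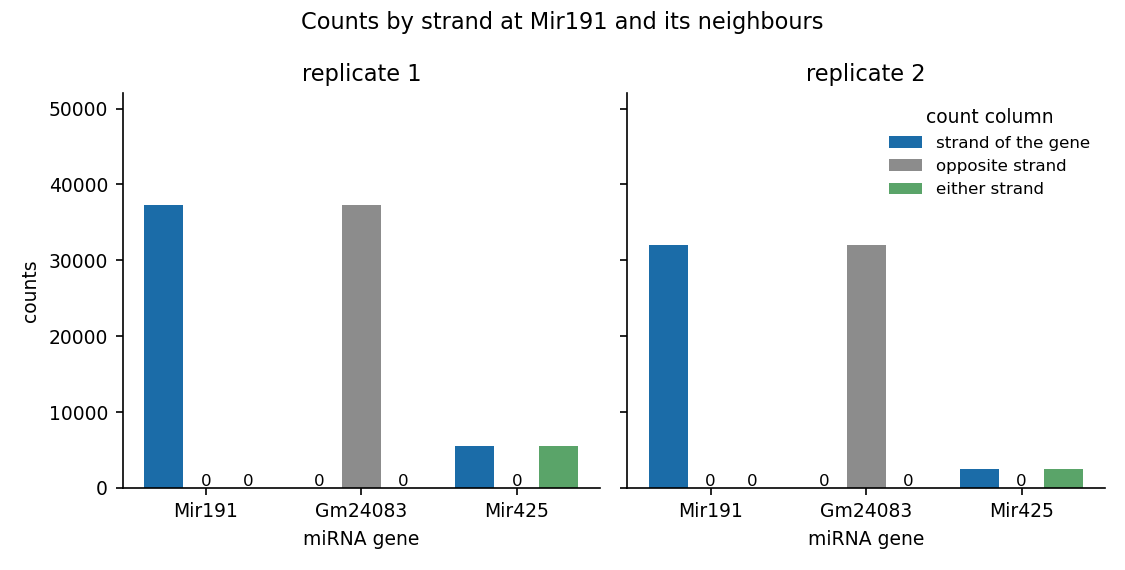
Counts of Mir191, of Gm24083 on the other strand and of Mir425 in each library, by count column. Bars start at 0 and the digit 0 marks an empty bar. The same 37298 and 32038 reads stand as the gene-strand count of Mir191 and the opposite-strand count of Gm24083, and the either-strand bars are at 0 for both genes.

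Mir191 and Mir425 lie 384 bases apart on one strand. The ratio of their counts within a library does not depend on its total, as for any pair of genes. The hairpin of Mir425 is printed beside that of Mir191 above, with mature arms in capitals.
Mir425: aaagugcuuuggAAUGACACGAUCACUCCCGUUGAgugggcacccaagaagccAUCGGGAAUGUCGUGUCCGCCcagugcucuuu

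There were 6.8 reads of Mir191 per read of Mir425 in replicate 1 (exact 95% interval 6.61 to 7) and 13.2 in replicate 2 (12.7 to 13.8). The mean ratio was 10.01 ± 4.53 (SD, n = 2). The hairpins moved in opposite directions, with Mir191 lower and Mir425 higher in replicate 1 than in replicate 2, and the ratio differed 1.94-fold between the libraries, a change of 0.96 on the log2 scale. Of 61 pairs of neighbouring miRNA genes on one strand within 10 kb, each detected with at least 1000 counts in sum, 10 changed by more. The median change over the 61 pairs was 0.515, or 1.43-fold. Many of these pairs lie in the same cluster and share a gene with the next pair, so they are not 61 separate loci.

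**Figure D4:**
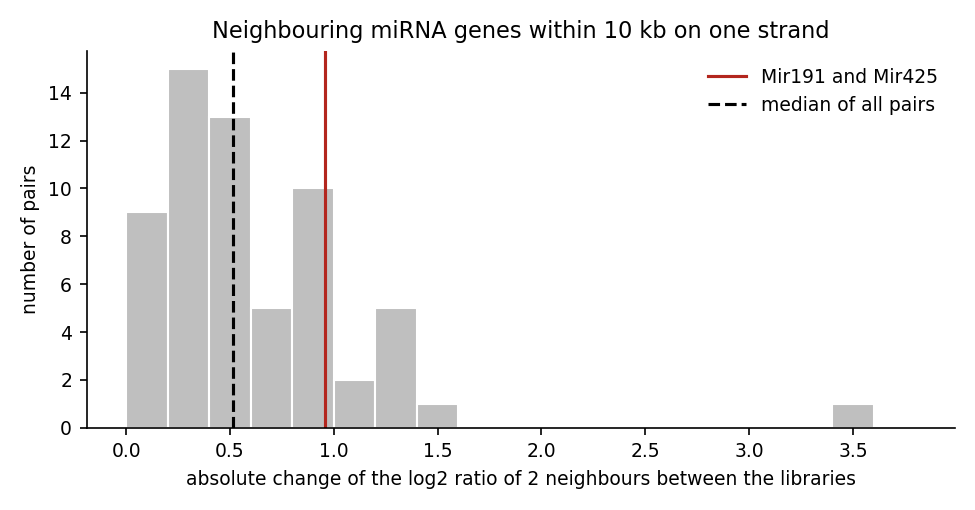
Histogram of 61 pairs of neighbouring miRNA genes by the absolute change of their log2 ratio between replicate 1 and replicate 2. The red line is Mir191 with Mir425 at 0.96 and the dashed line is the median of all pairs at 0.515.

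Each gene was compared between the libraries by an exact binomial test, two-sided and conditional on the totals. It takes in counting error alone and compares these libraries, not conditions. In bulk tissue, fewer cells of a type and less RNA per cell cannot be told apart. Of the 8 genes, 7 differed at an adjusted p under 0.05, 4 higher in replicate 1 and 3 higher in replicate 2. Over all 507 genes tested, 264 differed, a share of 52.1%, and among the 187 with at least 1000 counts, as each of the 8 has, 166 differed, a share of 88.8%. The 7 of 8 is close to the share among genes as deeply counted.

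Mir423, Mir744, Mir425 and Mir328 were higher in replicate 1. Mir423 was 2.02-fold higher (95% exact interval 1.97 to 2.08) and was the 1 member over 2-fold apart, as were 124 of the 507 genes tested and 25 of the 187 with at least 1000 counts. That count and the gene turn on the scaling. Over the scalings tried, the log2 ratio lay between 0.66 and 1.05 for Mir423 and between 0.63 and 1.02 for Mir744. For Mir361 it lay between -1.09 and -0.69. With all reads as denominator Mir361 was over 2-fold apart, at -1.09, and Mir423 and Mir744 were not, at 0.66 and 0.63. Mir744 was 1.98-fold higher (1.95 to 2.01), Mir425 1.52-fold (1.45 to 1.6) and Mir328 1.38-fold (1.35 to 1.41). Mir361, Mir191 and Mir652 were lower in replicate 1, at 0.604-fold (0.588 to 0.621), 0.784-fold (0.772 to 0.796) and 0.835-fold (0.822 to 0.847). Mir186, with 0.881-fold in replicate 1, did not pass (adjusted p = 0.0848 by the exact binomial test with Benjamini-Hochberg adjustment over all 507 genes).

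The median absolute log2 ratio was 0.536 in the 8 genes, against 0.42 in the 187 genes with at least 1000 counts and 0.494 in all 507. In the 35 genes listed as of other broadly expressed hosts it was 0.452 and in the 15 listed as of neural hosts 0.509. The median of the 8 was the highest of these sets, but it rests on 8 genes, and whether the medians differ was not tested. Of the 426 detected genes, 67 had a larger absolute ratio than Mir423 and 75 than Mir744, and of the 187 with at least 1000 counts 23 and 26 did. The spread beyond counting error over all genes, from edgeR's common dispersion, was a coefficient of variation of 0.378. Set against that spread in a negative binomial test, 0 of the 8 genes and 2 of all genes differed at an adjusted p under 0.05, and the lowest unadjusted p of the 8 was 0.186, for Mir423. None of the 8 had an unadjusted p under 0.05 in that test, and 23 of all genes did. The dispersion was estimated from the same 2 libraries that the test compares, so a typical difference between them is counted as spread, and the 0 does not show that the 8 genes did not differ.

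Of the 4 members higher in replicate 1, Mir744 and Mir423 lie in introns on chromosome 11 and Mir425 in an exon of a lincRNA gene on chromosome 9. Mir328 lies opposite Elmo3, for the most part outside its exons, on chromosome 8. Of the 3 lower in replicate 1, Mir361 and Mir652 lie in introns on the X chromosome, and Mir191 overlaps the same lincRNA gene as Mir425. Whether position bears on the direction was not tested.

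**Figure D5:**
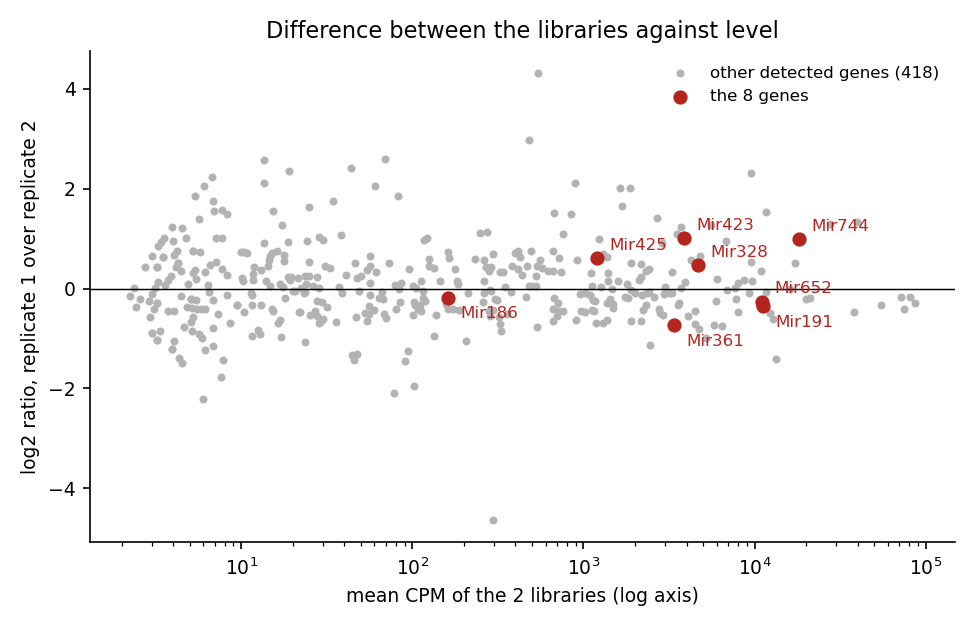
Log2 ratio of replicate 1 over replicate 2 against mean CPM on a log axis for the 426 detected genes. Red points are the 8 genes, which lie between -0.73 for Mir361 and 1.02 for Mir423, and grey points are the other detected genes.

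Read totals and cell type markers also differed between the libraries. Replicate 1 had 3793934 counts on miRNA genes with 41.3% of its reads unmapped, and replicate 2 had 2554997 counts with 20.7% unmapped. The summed share of 13 neuronal genes was 3.03% in replicate 1 and 2.11% in replicate 2, but without Mir132, the highest, it was 1.3% and 1.52%. Of these genes 3 were called higher in replicate 1 and 4 in replicate 2. The summed share of 2 oligodendrocyte genes was 0.404% and 0.123%, of 3 choroid plexus genes 0.196% and 0.0916%, of 2 microglial genes 0.00627% and 0.00489%, and of the endothelial Mir126a 1.13% and 0.783%. All of these genes were called higher in replicate 1 except the microglial Mir142, at 54.6 and 45.8 CPM. The other microglial gene, Mir223, had 31 and 8 counts. The summed share of 3 erythroid genes was 0.00754% in replicate 1 and 0.0192% in replicate 2, and without Mir451a, the highest, 0.00335% and 0.00297%. Mir451a and Mir144 were called higher in replicate 2, Mir144 with 16.8 CPM against 8.96 CPM in replicate 1. Mir486 was called higher in replicate 1, with 24.5 CPM against 12.9 CPM in replicate 2. Of 3 muscle genes, Mir1a-1 and Mir133a-1 were at 0 counts, and Mir206 had 27.4 and 35.6 CPM. Of the 13 neuronal genes 9 were detected, led by Mir132 with 17266 CPM in replicate 1 and 5947 CPM in replicate 2. The 4 not detected were Mir9-2 and the 3 genes of miR-124, a defining neuronal miRNA, which had 12 and 4, 5 and 1, and 0 and 4 counts in replicates 1 and 2. Reads that mapped to several places, 26.3% of reads in replicate 1 and 37.5% in replicate 2, are listed apart and are in no gene's count, and their part in the low counts of these genes, which have several copies, was not tested. The neuronal share is that of the counted reads alone. All listed oligodendrocyte, choroid plexus, microglial, endothelial and erythroid genes were detected. The part of these differences in the ratios of the 8 genes was not tested.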

How the data were processed

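The deposited tables hold raw counts of reads per miRNA gene, with no normalization, on mm10 with GENCODE M21, per the text the authors deposited with them. Which aligner, counter and read trimming the authors used is not given in the sources used here. No header line names the columns. From their values, the 3 count columns were read as unstranded, gene-strand and opposite-strand counts. A further 4 rows for reads given to no gene stayed out of library sizes and tests: multimapping reads were 26.3% and 37.5% and reads outside miRNA genes 4.85% and 6.51% of the reads of replicates 1 and 2.

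CPM were computed on the strand of the gene. A count of 0 allows up to 0.791 and 1.17 CPM in replicates 1 and 2, from 3 counts of the total, by counting error alone. Genes with at least 10 counts in sum entered a two-sided exact binomial test with Benjamini-Hochberg adjustment and a threshold of 0.05. With 1 group there is no contrast for edgeR's quasi-likelihood test, so edgeR 4.0.16 gave the common dispersion (intercept-only design) and TMM factors, and DESeq2 1.42.0 gave size factors (R 4.3.3). Tests ran in scipy 1.17.1, tables in pandas 2.3.3 with numpy 2.4.6 and plots in matplotlib 3.10.9, under Python 3.11.15. All 2202 gene identifiers matched the annotation. Genes over which a member lies were taken from all gene types other than short RNAs and unverified (TEC) models, and exons from any transcript. Introns are numbered in the longest protein-coding transcript of the basic set that holds the hairpin in an intron (for the lincRNA, its 1 such transcript).

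The text names the 8 genes, for each the gene nearest in level and its neighbours in rank, overlapping miRNA genes, the 3 highest genes of each host list and genes that share a seed. Pairs of neighbours, the limit of 1000 counts and the marker sums without their highest gene were added after the values were seen. The members and lists were chosen with earlier results of these data known. Of the listed genes, 1 of the neural hosts, Mir885, was not matched.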

Additional observations from a re-analysis of the deposited data

How the results depend on the processing

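Depth, denominators and the spread assumed limit these results. With all reads in the table as denominator the median level of the 8 genes was 1301 CPM and their share 1.66%, and without the 10 most abundant genes in the denominator 8739 CPM and 11%. In the either-strand column the share was 4.5% and the ratio of Mir191 to Mir425 was 0, since that column loses every Mir191 read. Leaving out 1 library gave a median of 4054 to 5297 CPM, a share of 4.85 to 5.86%, a ratio of Mir191 to Mir425 of 6.8 to 13.2 and 0 to 2 opposite-strand counts. Replicate 1 is the library with the higher median and the lower ratio. The 264 genes that differed became 2 in the negative binomial test with edgeR's common dispersion, 75 when over 2-fold apart was also required and 166 with at least 1000 counts, a limit chosen after seeing the data under which fewer genes were tested. For the 8 genes the count of 7 became 0 and 1 under the negative binomial test and the 2-fold limit, and stayed between 6 and 8 elsewhere. All reads as denominator shifted every log2 ratio by -0.36, and the other scalings by -0.09 to 0.03. The direction of each member's ratio was the same under these scalings, with Mir328 between 0.11 and 0.50, and Mir186 passed the exact test with all reads (-0.54, adjusted p = 1.54e-08) and without the 10 most abundant genes (-0.27, adjusted p = 0.0071). DESeq2 has no test for 2 libraries of 1 group, and its size factors alone were used. No paired analysis was possible because the series has 1 group.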
